A study of Homo sapiens with 12 samples.

Results

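The genes described here are 10 targets of the endoplasmic reticulum (ER) unfolded protein response in 786-O cells, a human clear cell renal carcinoma line. They are chaperone and degradation genes of the ATF6 and XBP1 branches and were taken by symbol, whatever their values: HSPA5, HSP90B1, XBP1, DNAJB9, HERPUD1, SEL1L, EDEM1, SDF2L1, PDIA4 and CRELD2. All 10 were found among the 17085 genes of the count table, and all 10 were among the 12841 genes tested. The cells, recorded as wild type, were cultured for 24 h with the vehicle DMSO, with everolimus, with SGI-1027 or with both drugs, and 3 libraries were sequenced in each of the 4 groups. Everolimus inhibits the kinase complex mTORC1, and SGI-1027 is an inhibitor of DNA methyltransferases. SGI-1027 was given at 1.5 µM alone and in the combination group, which also received 5 µM everolimus. For the everolimus group the treatment tag and the methods of the study give 5 µM, whereas the protocol text of the sample records gives 10 µM, so whether the everolimus dose was the same alone and in the combination was not settled by the records.

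The ER folds proteins that are to be secreted or placed in membranes, and it watches its own folding load through the sensors ATF6, IRE1 (gene ERN1) and PERK (gene EIF2AK3). ATF6 is cut in the Golgi to release a transcription factor, IRE1 splices the messenger RNA of XBP1 so that it encodes an active factor, and PERK slows translation while favouring that of ATF4. ATF6 and spliced XBP1 raise ER chaperones, folding enzymes and the machinery of ER-associated degradation (ERAD), which returns misfolded proteins to the cytosol for the proteasome. The sensors, the list of ER genes beyond the 10, and genes of the PERK arm are described after the 10 genes themselves.

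ATF6 binds, together with the CCAAT-binding factor NF-Y, to the ER stress element (ERSE), and a shorter arrangement of the same boxes is called ERSE-II. The promoter elements are shown as a description. The 10 genes were listed as genes of the ATF6 and XBP1 branches, so an element bound by ATF6 among them is not an independent result. Promoter windows from RefSeq (GRCh38.p14, 250 bases before to 50 bases after each annotated start) were matched for 10 of 10 genes, in 12 windows since some genes have more than 1 start, and both strands were searched. ERSE, spelled CCAAT, 9 bases of any kind and CCACG, was found in the windows of 4 genes, HSPA5, HSP90B1, XBP1 and CRELD2, against 0.0916% of the 27305 genes with a window. ERSE-II, spelled ATTGG, 1 base of any kind and CCACG, was found in 2 genes, HERPUD1 and SDF2L1, against 0.0696% of all genes. The matches are printed below, 5′ to 3′ on the strand of the gene, with the boxes of each ERSE or ERSE-II match (CCAAT and CCACG, or their reverse complements ATTGG and CGTGG) in capitals.
HSPA5, chr9:125241386-125241414 (minus strand): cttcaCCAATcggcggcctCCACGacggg
XBP1, chr22:28800598-28800626 (minus strand): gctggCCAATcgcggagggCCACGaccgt
CRELD2, chr22:49918549-49918577 (plus strand): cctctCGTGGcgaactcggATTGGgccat
HERPUD1, chr16:56932020-56932040 (plus strand): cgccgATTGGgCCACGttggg
SDF2L1, chr22:21642109-21642129 (plus strand): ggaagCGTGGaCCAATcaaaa
HSP90B1, chr12:103930211-103930344 (plus strand): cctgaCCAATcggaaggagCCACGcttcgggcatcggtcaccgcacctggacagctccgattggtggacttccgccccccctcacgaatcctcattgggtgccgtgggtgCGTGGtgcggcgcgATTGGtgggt
HSP90B1 carried 2 copies in opposite orientations, both within the stretch printed, and the single boxes between them are left in lower case. The other four genes, DNAJB9, SEL1L, EDEM1 and PDIA4, held neither element in these windows. The core TGACGTGG of the unfolded protein response element bound by XBP1 was in none of the 10 genes' windows (0 of 10, against 0.927% of all genes), and neither were the cyclic AMP response element TGACGTCA (2.25% of all genes) or the ATF4 element TGATGCAAT (0.293%). The single boxes CCACG and CCAAT, which overlap the full elements, were each present for all 10 genes and also for 42.1% and 39.7% of all genes. A match is a description of letters and not a measured site of binding.

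**Figure D1:**
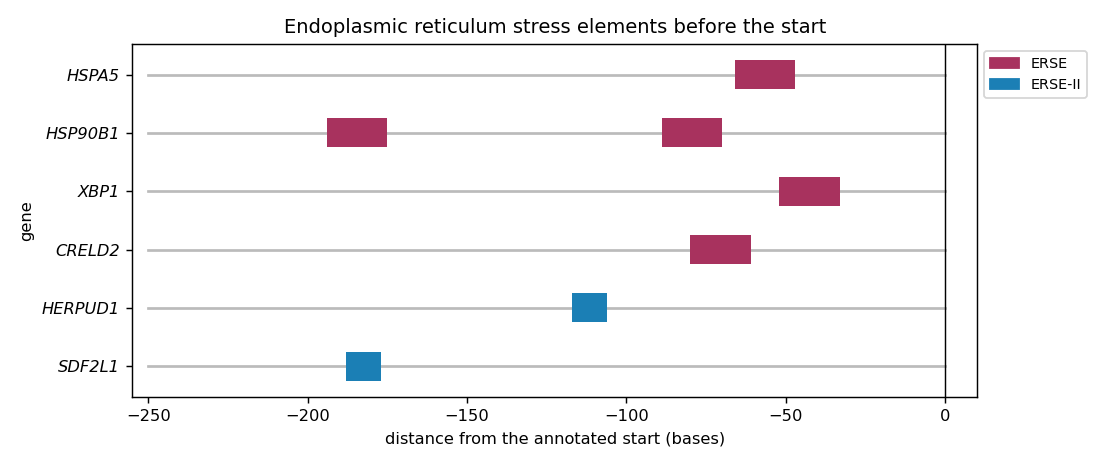
Positions of the ERSE and ERSE-II matches in the 6 genes that hold one, as distance in bases from the annotated start along the x axis, with 1 gene per line and a grey line over the 250 bases before the start. HSP90B1 has 2 ERSE matches and each of the other genes has 1 match.

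Total counts per library ranged from 37046231 to 41516976. DMSO replicate 1 and SGI-1027 replicate 3 stood apart from the other libraries of their groups, with a chi-square per gene of 10.4 to 16.5 against them where the remaining pairs of replicates gave 3.05 to 5.54, and results that turn on either library are given with and without it. The renal markers PAX8, PAX2, EPAS1, VIM, KRT8, KRT18 and CDH2 were detected in all 12 libraries, CA9 reached no more than 32 counts, and PTPRC, CD3E, CD14, PECAM1, CDH5 and ALB, which mark blood, endothelial and liver cells, reached no more than 15. The records do not say that replicates came from separate cultures, so the p values measure the spread between these libraries, which may be technical. In RNA from whole cultures, fewer cells with a transcript and less transcript per cell cannot be told apart.

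The 10 genes covered a wide range of levels (FPKM, which is scaled by gene length). In the DMSO group HSP90B1 was highest at 395 ± 10.1 FPKM (SD, n = 3) and DNAJB9 lowest at 2.10 ± 0.367 FPKM, a ratio of 189. HSPA5 at 320.1 ± 7.35, PDIA4 at 188 ± 5.87 and XBP1 at 63.5 ± 2.38 FPKM followed HSP90B1. SDF2L1 had 31.2 ± 2.50, CRELD2 24.8 ± 1.18, HERPUD1 19.4 ± 0.540, SEL1L 18.3 ± 0.864 and EDEM1 8.40 ± 0.634 FPKM. The libraries of HERPUD1 and SEL1L overlapped, whereas no other neighbours in this order did. By mean FPKM, SDF2L1 moved from the fifth place to the seventh in all 3 treated groups, behind CRELD2 and HERPUD1. The remaining genes kept their places. Libraries of SDF2L1 overlapped those of SEL1L with everolimus (18.8 to 20.2 against 18.7 to 19.2) and SGI-1027 (14.9 to 21.7 against 17.3 to 18.4). With SGI-1027 they also overlapped those of CRELD2 (21.3 to 21.7). In the combination group they overlapped those of CRELD2 (19.9 to 24.0 against 21.4 to 22.6), so these places were close. The 10 genes together took 0.329% to 0.340% of all counts in DMSO libraries, 0.300% to 0.301% in everolimus libraries, 0.292% to 0.309% in SGI-1027 libraries and 0.278% to 0.284% in combination libraries, so that every treated library was below every DMSO library. For the single drugs that order rested on HSPA5. Without HSPA5 the other 9 genes took 0.206% to 0.211% in DMSO and 0.223% to 0.225% in everolimus libraries. They took 0.211% to 0.223% in SGI-1027 and 0.196% to 0.204% in combination libraries. Everolimus was thus above DMSO, SGI-1027 overlapped it and the combination stayed below it. HSP90B1 and PDIA4 held the most counts of these 9, with means of 42967 and 20450 in DMSO libraries, followed by SEL1L with 6137.

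**Figure D2:**
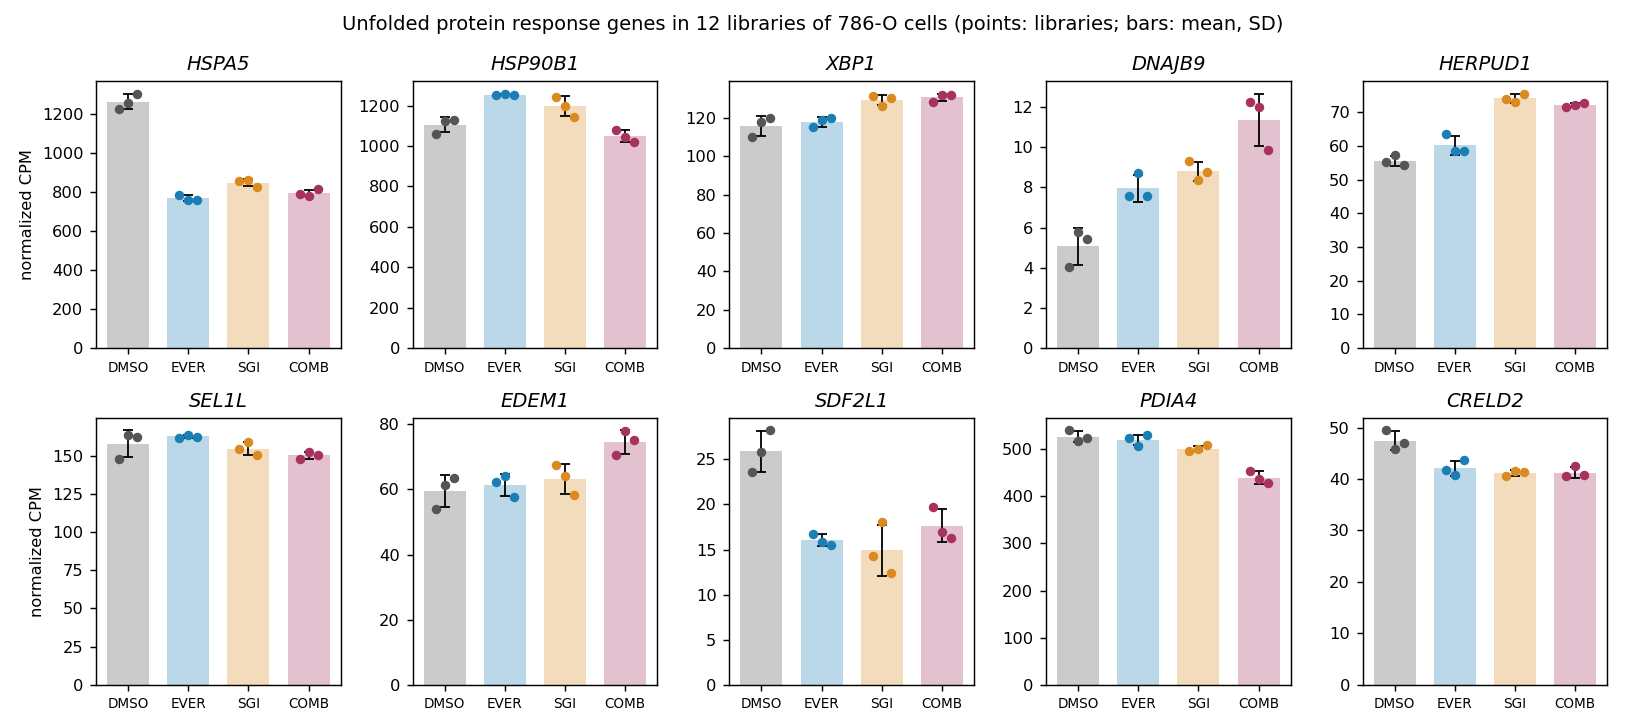
Normalized CPM (counts relative to the TMM-scaled library size, y axis, linear from 0) of each of the 10 genes in the 4 groups (EVER is everolimus, SGI is SGI-1027 and COMB is both drugs), with 1 point per library, bars for the mean and error bars for the SD of 3 libraries. HSPA5 and SDF2L1 are lower in every treated library than in any DMSO library, and DNAJB9 is higher in every treated library.

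Against DMSO, the 10 genes did not move as one group. HSPA5, SDF2L1 and CRELD2 were lower with every treatment, DNAJB9 and HERPUD1 were higher with every treatment, XBP1, HSP90B1, PDIA4 and EDEM1 changed in some groups only, and SEL1L passed the test in none. In the everolimus group 3 of 10 genes passed as higher and 3 as lower (edgeR adjusted p under 0.05), that is 60% of the list, while 56.4% of the 12841 tested genes were called in either direction (27.2% higher and 29.2% lower). With SGI-1027 there were 4 higher and 3 lower, against 62.6% of tested genes (32% higher and 30.6% lower), and in the combination group 4 were higher and 4 lower, against 66.2% (32.8% higher and 33.4% lower). The members' shares therefore lay near those of all genes, and the median log2 fold change of the 10 was 0.03, 0.03 and −0.07 in the 3 groups where that of all tested genes was 0.00, 0.02 and 0.01. Libraries of the treated and DMSO groups did not overlap for 6, 8 and 8 of the 10 genes, where 62.9%, 63.2% and 69.2% of all tested genes did not overlap. The study's methods ask for p under 0.05 together with a change of 1 or more in either direction on the log2 scale, and by that cut-off only DNAJB9 in the combination group remained (1 of 10 genes, against 9.96% of tested genes, 7.25% higher and 2.71% lower). None of the 10 passed it with everolimus (0 of 10, against 4.79%, with 3.89% higher and 0.903% lower) or with SGI-1027 (0 of 10, against 7.33%, with 6.25% higher and 1.07% lower). Without DMSO replicate 1 and SGI-1027 replicate 3 everolimus had 3 higher and 3 lower, SGI-1027 had 4 and 3, and the combination had 4 and 6. The shares of all tested genes were taken in the main fit only. Counts from this and other alternative fits therefore have no such share beside them and are not read as a trait of the 10 genes.

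**Figure D3:**
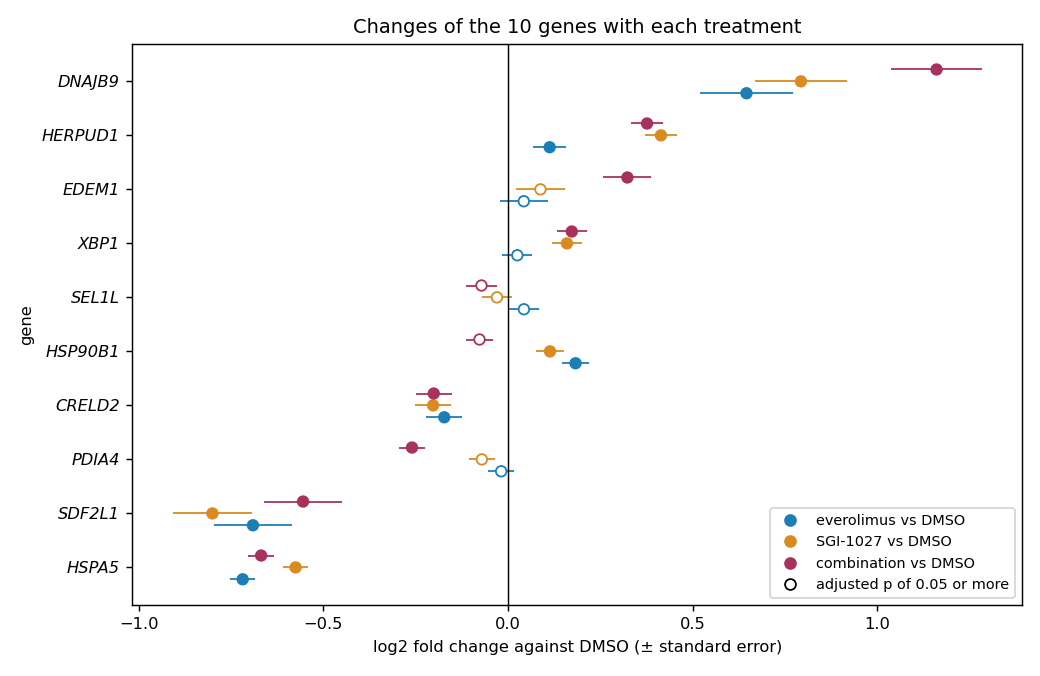
Log2 fold change against DMSO (x axis, with standard error bars) for the 10 genes (y axis) in the everolimus, SGI-1027 and combination groups, where filled points have an adjusted p under 0.05 and open points do not. HSPA5 and SDF2L1 lie between −0.80 and −0.55 in every group and DNAJB9 between 0.65 and 1.16.

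HSPA5 encodes BiP, the HSP70 of the ER lumen, which holds unfolded chains and keeps the 3 sensors inactive while folding demand is low. It fell with all 3 treatments and by similar amounts. The DMSO libraries had 1226, 1255 and 1301 normalized CPM, and the everolimus libraries 784, 758 and 758. The SGI-1027 libraries had 854, 859 and 826, and the combination libraries 788, 780 and 812. All 9 treated libraries were lower than all 3 DMSO libraries, and the combination overlapped everolimus but not SGI-1027. The log2 fold change was −0.72 ± 0.03 (SE) with everolimus, which left 60.8% of the DMSO level (adjusted p = 1.52e-11 in edgeR's quasi-likelihood test). With SGI-1027 it was −0.57 ± 0.03 (adjusted p = 1.06e-10) and with the combination −0.67 ± 0.03 (adjusted p = 8.63e-12). Its counts rested on 28995 to 51675 reads per library, so that counting error was small beside the spread of replicates.

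HSP90B1 encodes GRP94, the HSP90 of the ER lumen, which finishes the folding of integrins and Toll-like receptors among others. Unlike HSPA5 it was higher than DMSO with each drug alone, and not with both. The DMSO libraries had 1061, 1122 and 1130 normalized CPM and the everolimus libraries 1252, 1258 and 1252. The SGI-1027 libraries had 1243, 1199 and 1144, and the combination libraries 1078, 1045 and 1018. Each single-drug group lay above DMSO without overlap, by a narrow gap for SGI-1027, while the combination overlapped DMSO. The change was 0.18 ± 0.04 on the log2 scale with everolimus (edgeR adjusted p = 4.19e-04) and 0.11 ± 0.04 with SGI-1027 (adjusted p = 0.0131). That for SGI-1027 missed the threshold when DMSO replicate 1 was left out (adjusted p = 0.0541) or SGI-1027 replicate 1 (0.0831) and in a fit of those groups alone (0.0623). In the combination group the value was −0.08 ± 0.04 (adjusted p = 0.0787), and it passed the threshold as a decrease without DMSO replicate 1 (−0.10, adjusted p = 0.0242), without SGI-1027 replicate 3 (−0.08, 0.0389) and with no filter on low counts (−0.09, 0.0480). HSP90B1 shares 131 exon bases with the microRNA gene MIR3652 on the same strand in GENCODE release 29, and the processed pseudogenes HSP90B2P and HSP90B3P were not analysed here.

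DNAJB9 encodes ERdj4, a J-domain partner of BiP that helps to bring BiP to IRE1 and misfolded proteins to ERAD. It was the most weakly expressed of the 10 and rose most. The DMSO libraries had 4.03, 5.78 and 5.42 normalized CPM, from 150 to 238 counts, and the everolimus libraries 7.57, 8.75 and 7.55. The SGI-1027 libraries had 9.30, 8.37 and 8.77, and the combination libraries 12.2, 11.99 and 9.88. DMSO was below every treated library, with DMSO replicate 1 the lowest, and the combination was above every library of either drug. The log2 fold change was 0.65 ± 0.13 with everolimus (edgeR adjusted p = 2.80e-04), 0.79 ± 0.13 with SGI-1027 (2.48e-05) and 1.16 ± 0.12 with the combination (1.60e-07), the last being 2.24-fold. Without DMSO replicate 1 and SGI-1027 replicate 3 these values were 0.51, 0.66 and 1.02, all past the threshold. In GENCODE release 29, 183 exon bases of DNAJB9 overlap THAP5 on the opposite strand, and since the strand setting of the counting is not given, reads of the pair there may not be separable. The log2 fold changes of THAP5 were 0.15 ± 0.08, 0.28 ± 0.08 and 0.22 ± 0.08 with everolimus, SGI-1027 and both drugs (edgeR adjusted p = 0.0998, 0.00425 and 0.0182), each smaller than the change of DNAJB9.

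SDF2L1 encodes an ER protein that works with BiP and its J-domain partners to hold aggregation-prone chains. Like HSPA5 it fell in every treated group. The DMSO libraries had 23.6, 25.8 and 28.2 normalized CPM, and the everolimus libraries 16.8, 15.9 and 15.5. The SGI-1027 libraries had 14.3, 18.02 and 12.4, the widest spread of any treated group of this gene, and the combination libraries 19.7, 17.0 and 16.2. No treated library reached the lowest DMSO library, and the 3 treated groups overlapped each other. The log2 fold change was −0.69 ± 0.11 with everolimus (edgeR adjusted p = 2.37e-05), −0.80 ± 0.11 with SGI-1027 (3.71e-06) and −0.55 ± 0.11 with the combination (1.52e-04).

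PDIA4 encodes ERp72, a disulfide isomerase of the ER lumen, and CRELD2 an ER protein with disulfide isomerase activity that is released when ER calcium falls. PDIA4 was lower in the combination group and CRELD2 in all 3 treated groups. The DMSO libraries of PDIA4 had 539.7, 517 and 523 normalized CPM and the combination libraries 454, 437 and 428, without overlap. The everolimus libraries of PDIA4 had 507 to 529 and overlapped DMSO, and the SGI-1027 libraries had 496 to 508, just under the lowest DMSO library. The change of PDIA4 was −0.26 ± 0.03 on the log2 scale with the combination (edgeR adjusted p = 3.09e-06), −0.07 ± 0.03 with SGI-1027 (adjusted p = 0.0861, or 0.0294 in DESeq2) and −0.02 ± 0.03 with everolimus (adjusted p = 0.679). CRELD2 had 49.4, 45.8 and 47.0 normalized CPM in DMSO libraries and 40.5 to 43.7 in the 9 treated libraries, so that no treated library reached DMSO. Its change was −0.17 ± 0.05 with everolimus (adjusted p = 0.00537), −0.20 ± 0.05 with SGI-1027 (0.00137) and −0.20 ± 0.05 with the combination (0.00133). With upper-quartile scaling the everolimus value of CRELD2 became −0.10 and missed the threshold (adjusted p = 0.0892).

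XBP1, the transcription factor gene of the IRE1 arm, was slightly higher in both groups that received SGI-1027. The DMSO libraries had 109.9, 118 and 120.1 normalized CPM and the everolimus libraries 115, 119 and 120.0, which overlapped. The SGI-1027 libraries had 131, 126 and 131 and the combination libraries 128, 132 and 132, all above the DMSO libraries and overlapping each other. The change was 0.16 ± 0.04 on the log2 scale with SGI-1027 (edgeR adjusted p = 0.00224) and 0.17 ± 0.04 with the combination (0.00106). With everolimus it was 0.03 ± 0.04 (adjusted p = 0.615), −0.01 without DMSO replicate 1, and 0.10 with an adjusted p of 0.0410 under upper-quartile scaling. Gene counts add spliced and unspliced messenger RNA, so the splicing of XBP1 by IRE1 was not measured, and the processed pseudogene XBP1P1 was not analysed here.

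Of the ERAD genes, HERPUD1 rose most with SGI-1027, EDEM1 rose with the combination, and SEL1L did not pass the test against DMSO in any group. HERPUD1 encodes an ER membrane protein that gathers the HRD1 ubiquitin ligase complex. Its DMSO libraries had 55.4, 57.2 and 54.3 normalized CPM and its everolimus libraries 63.5, 58.5 and 58.7, above DMSO by a narrow gap and with replicate 1 the highest. The SGI-1027 libraries had 73.9, 73.04 and 75.6 and the combination libraries 71.6, 72.3 and 72.9, far above both. The log2 fold change was 0.41 ± 0.04 with SGI-1027 (edgeR adjusted p = 2.43e-07) and 0.38 ± 0.04 with the combination (6.33e-07). The smaller value with everolimus, 0.11 ± 0.04 (adjusted p = 0.0387), missed the threshold without DMSO replicate 1 (0.0783), DMSO replicate 3 (0.123), everolimus replicate 1 (a change of 0.07, 0.217) or combination replicate 2 (0.0511), and with no filter on low counts (0.103).

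EDEM1, which hands misfolded glycoproteins with trimmed mannose to ERAD, had 53.9, 61.2 and 63.5 normalized CPM in DMSO libraries and 70.7, 77.8 and 75.1 in combination libraries. The everolimus libraries (57.6 to 64.0) and the SGI-1027 libraries (58.3 to 67.5) overlapped DMSO, whereas the combination lay above every other library. The change was 0.32 ± 0.07 on the log2 scale with the combination (edgeR adjusted p = 2.73e-04), 0.04 ± 0.07 with everolimus (0.600) and 0.09 ± 0.07 with SGI-1027 (0.253). Without DMSO replicate 1 the everolimus value was −0.03. EDEM1 shares 626 exon bases with the antisense gene AC026202.3, and that overlap carries the same limit as the one of DNAJB9.

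SEL1L, the adaptor of the HRD1 ligase, had 148 to 163 normalized CPM in DMSO, 161 to 163 in everolimus, 150.2 to 159 in SGI-1027 and 148 to 152 in combination libraries. Its changes against DMSO were 0.04 ± 0.04 with everolimus (approximate 95% interval −0.04 to 0.12, edgeR adjusted p = 0.390), −0.03 ± 0.04 with SGI-1027 (−0.11 to 0.05, 0.549) and −0.07 ± 0.04 with the combination (−0.15 to 0.01, 0.137). DMSO replicate 1 was the lowest library of its group. Without that library SEL1L was lower with the combination (−0.11, adjusted p = 0.0149) and the everolimus value changed sign to −0.00434, while upper-quartile scaling gave 0.12 with everolimus (adjusted p = 0.0225).

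The combination was then compared with each drug alone, to see what the second drug added. Against everolimus 4 genes were higher and 3 lower (39.3% of tested genes were called, 20.1% higher and 19.2% lower), and against SGI-1027 2 were higher and 2 lower (19.6%, with 9.4% higher and 10.2% lower). Libraries did not overlap for 7 genes against everolimus and 6 against SGI-1027, where 54.2% and 34.6% of tested genes did not. No gene of the 10 passed the study's cut-off here (0 in each comparison, against 3.9% of tested genes, 2.44% higher and 1.46% lower, and 1.64%, 0.428% higher and 1.21% lower). DNAJB9, EDEM1, HSP90B1 and PDIA4 were called in both comparisons. DNAJB9 was 0.51 ± 0.12 higher on the log2 scale than with everolimus (edgeR adjusted p = 0.00187) and 0.37 ± 0.12 higher than with SGI-1027 (0.0333). EDEM1 was 0.28 ± 0.07 higher than with everolimus (0.00214) and 0.24 ± 0.07 higher than with SGI-1027 (0.0151). HSP90B1 was lower by 0.26 ± 0.04 and 0.19 ± 0.04 (adjusted p = 2.01e-05 and 0.00122), and PDIA4 lower by 0.24 ± 0.03 and 0.19 ± 0.03 (2.07e-05 and 6.96e-04). Both increases against SGI-1027 depended on single libraries. That of DNAJB9 missed the threshold without SGI-1027 replicate 2 (adjusted p = 0.102), combination replicate 1 (0.123) or combination replicate 2 (0.123), and that of EDEM1 without combination replicate 2 (0.0791) or combination replicate 3 (0.0516).

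XBP1 and HERPUD1 were higher in the combination than with everolimus, by 0.15 ± 0.04 and 0.26 ± 0.04 on the log2 scale (edgeR adjusted p = 0.00719 and 1.09e-04), and did not pass the test against SGI-1027 (0.01 ± 0.04, adjusted p = 0.870, and −0.04 ± 0.04, adjusted p = 0.614). The approximate 95% intervals of the differences from SGI-1027 were −0.07 to 0.09 for XBP1 and −0.12 to 0.05 for HERPUD1. For XBP1 the combination libraries overlapped those of SGI-1027, for HERPUD1 they lay just under them, and for both genes they lay apart from those of everolimus. SEL1L was lower than with everolimus by 0.11 ± 0.04 (adjusted p = 0.0347), a call that was lost when any 1 everolimus or combination library was left out (adjusted p from 0.0721 to 0.130). HSPA5 differed from everolimus by 0.05 ± 0.03 (adjusted p = 0.270) and from SGI-1027 by −0.09 ± 0.03 (0.0646). The latter passed without DMSO replicate 1 (−0.09, adjusted p = 0.0496) or SGI-1027 replicate 3 (−0.11, 0.0296). SDF2L1 differed by 0.14 ± 0.11 and 0.25 ± 0.11 (adjusted p = 0.347 and 0.130), the second of which was 0.40 with an adjusted p of 0.00905 without SGI-1027 replicate 2. CRELD2 differed by −0.03 ± 0.05 and 0.00 ± 0.05 (adjusted p = 0.684 and 0.986), and neither comparison passed the test.

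The interaction term compared the change with both drugs with the sum of the changes with each drug alone, on the log2 scale. It was positive for HSPA5, SDF2L1 and CRELD2, whose decreases with both drugs were smaller than the sum, and negative for HSP90B1 and PDIA4. These 3 and 2 calls among 10 genes stood against 45.6% of tested genes called (23.6% higher and 22.1% lower), and by the study's cut-off there were 0 against 5.76% (1.14% higher and 4.63% lower). For HSPA5 the sum was −1.29 and the combination −0.67 ± 0.03, an interaction of 0.62 ± 0.05 (edgeR adjusted p = 1.64e-08). For SDF2L1 the sum was −1.49 and the combination −0.55 ± 0.11, an interaction of 0.94 ± 0.15 (7.38e-05). For neither gene was the combination mean under the lower of the single-drug means. HSP90B1 had a sum of 0.30 and an interaction of −0.37 ± 0.05 (adjusted p = 1.70e-05), and PDIA4 a sum of −0.09 and an interaction of −0.17 ± 0.05 (0.00852). The interaction of CRELD2, 0.17 ± 0.07 (adjusted p = 0.0455), missed the threshold when DMSO replicate 1 or 3, everolimus replicate 1 or 2, SGI-1027 replicate 1 or 2, or combination replicate 2 or 3 was left out (adjusted p from 0.0576 to 0.109), and it was 0.10 with upper-quartile scaling (0.241). The interaction of DNAJB9 was −0.28 ± 0.17 (adjusted p = 0.198), with an approximate 95% interval of −0.62 to 0.06, which spans 0. For HERPUD1 it was −0.15 ± 0.06 (adjusted p = 0.0580). The HERPUD1 term passed with upper-quartile scaling (−0.22, 0.00731) and with at least 10 counts in every library (−0.16, 0.0402), and missed in 19 of 21 alternatives. For EDEM1 the interaction was 0.19 ± 0.09 (0.0993, or 0.26 and 0.0155 without DMSO replicate 1, and 0.24 and 0.0492 without SGI-1027 replicate 1). For SEL1L it was −0.09 ± 0.06 (0.249, or −0.16 and 0.0353 with upper-quartile scaling) and for XBP1 −0.01 ± 0.06 (0.882). All of these terms use the same DMSO libraries as the comparisons above.

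**Figure D4:**
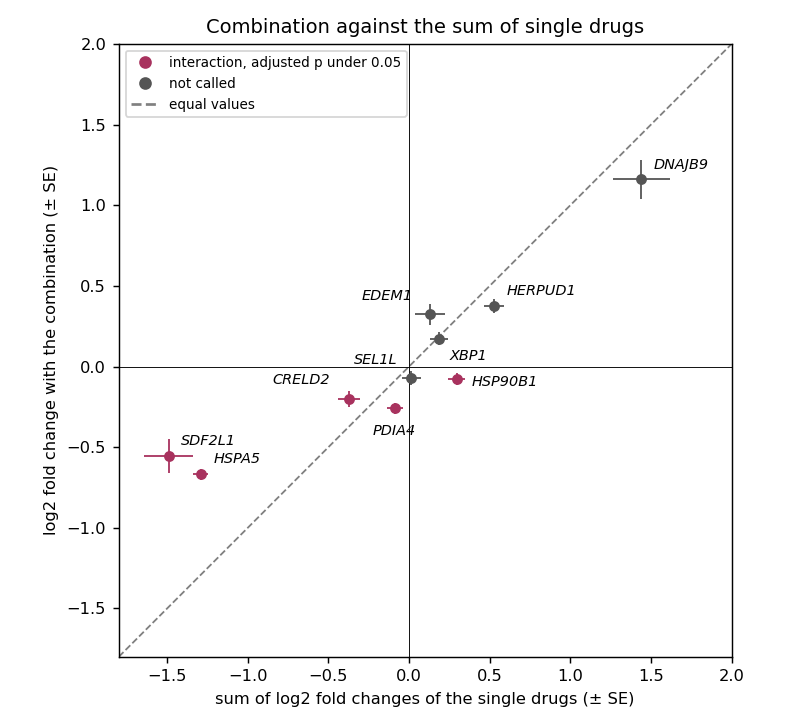
Log2 fold change with the combination (y axis, with standard error) against the sum of the log2 fold changes with everolimus and with SGI-1027 (x axis, with error bars) for the 10 genes, where the dashed line marks equal values and coloured points have an interaction with an adjusted p under 0.05. The error bars on the x axis treat the changes with everolimus and with SGI-1027 as independent. Both changes use the same DMSO libraries, so these bars are too short. HSPA5 and SDF2L1 lie well above the line at sums of −1.29 and −1.49, and HSP90B1 lies below it at 0.30.

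Across the 12 libraries, log2 levels of the 10 genes correlated with each other from −0.92 (EDEM1 and PDIA4) to 0.87 (XBP1 and HERPUD1). HSPA5 went with CRELD2 (r = 0.86) and SDF2L1 (0.85) and against DNAJB9 (−0.82), and XBP1 went with HERPUD1 and DNAJB9 (0.82). These are descriptions over 12 libraries that share 4 treatments, with no test. Because the genes move in opposite directions, their mean is nearly flat, and the 5 other genes most like the mean of the z-scored levels, DHX36 (r = 0.89), UQCRB (0.88), YWHAB (0.86), KIF1B (0.85) and DYNC1LI2 (0.82), had log2 fold changes between −0.12 and 0.01 against DMSO.

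The sensors and related factors upstream of the 10 genes were next examined. Of 10 such genes 4 were higher and 0 lower with everolimus, 4 and 0 with SGI-1027, and 4 and 2 with the combination, with medians of 0.12, 0.14 and −0.03 on the log2 scale. Of all tested genes 27.2%, 32% and 32.8% were higher and 29.2%, 30.6% and 33.4% lower in these comparisons, and the counts of this and the following lists stand beside those shares without a test of the list. The 0 lower with SGI-1027 was 1 in DESeq2. Of the sensor genes, ERN1 was called in both groups that received SGI-1027, and ATF6 and EIF2AK3 in none. ATF6 had changes of 0.05, 0.03 and −0.01 and EIF2AK3 of 0.01, −0.03 and −0.06, none past the threshold (edgeR adjusted p from 0.330 to 0.926). ERN1 had 0.19 ± 0.13 with everolimus (adjusted p = 0.222), 0.34 ± 0.13 with SGI-1027 (0.0256) and 0.32 ± 0.13 with the combination (0.0364). MBTPS1, the first protease that cuts ATF6 in the Golgi, rose by 0.44 ± 0.03, 0.42 ± 0.03 and 0.39 ± 0.03 (adjusted p from 4.91e-09 to 9.43e-09), whereas MBTPS2, the next one, had values between −0.12 and −0.04 that did not pass. ATF6B, the close relative of ATF6, rose by 0.36 ± 0.07, 0.37 ± 0.07 and 0.26 ± 0.07 (adjusted p from 1.69e-04 to 0.00386). Among factors of the same membrane-bound family, CREB3L4 rose most, from 4.89 ± 0.390 normalized CPM in DMSO to 10.7 ± 0.339 in the combination group (1.13 ± 0.09, adjusted p = 6.61e-09). CREB3L2 was 0.20 ± 0.04 higher with everolimus (5.42e-04) and 0.26 ± 0.04 lower with the combination (2.81e-05). CREB3L1 fell by 0.41 ± 0.14 with the combination (0.0143), and CREB3 had values from −0.10 to −0.06 that did not pass.

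The list of ER chaperones and cochaperones beyond the 10 genes held calls in both directions. Of 16 tested genes (of 17 listed, FKBP2 having no more than 3 counts), 3 were higher and 6 lower with everolimus, 2 and 6 with SGI-1027, and 3 and 7 with the combination, with medians of −0.11, −0.09 and −0.09. SERPINH1, the collagen chaperone HSP47, fell by 0.83 ± 0.03 on the log2 scale with the combination (edgeR adjusted p = 4.32e-13), by 0.45 ± 0.03 with everolimus and by 0.44 ± 0.03 with SGI-1027. FKBP14, a prolyl isomerase that also acts on collagens, fell by 1.14 ± 0.08 (8.72e-10). CRELD1, the relative of CRELD2, rose by 0.64 ± 0.06 (3.09e-08) and DNAJC10, a reductase partner of BiP, by 0.29 ± 0.04 (2.18e-06).

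Among folding enzymes of the thioredoxin and oxidoreductase class, 8 of 16 were higher and 3 lower with everolimus, 8 and 4 with SGI-1027, and 9 and 5 with the combination, with medians of 0.10, 0.06 and 0.14. ERP29 rose by 0.51 ± 0.04 with the combination (edgeR adjusted p = 2.69e-09) and the oxidase gene ERO1B, at 4.11 ± 0.607 normalized CPM in DMSO, by 0.41 ± 0.13 (0.0114). TMX1 fell by 0.36 ± 0.07 (8.72e-05) and the sulfhydryl oxidase gene QSOX2 by 0.34 ± 0.05 (1.02e-05). PDIA4, which belongs to the same class by function, fell with the combination as given above.

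ERAD genes were divided, with 11 of 27 higher and 9 lower with everolimus, 11 and 10 with SGI-1027, and 12 and 10 with the combination. The median was 0.01, −0.09 and −0.02 on the log2 scale. SYVN1, which encodes the ligase HRD1 that SEL1L and HERPUD1 serve, had changes of 0.08, 0.13 and 0.09 that did not pass (edgeR adjusted p from 0.130 to 0.371). The lectin gene OS9 rose by 0.46 ± 0.04 with the combination (4.82e-09) and DERL3, at 0.513 ± 0.220 normalized CPM in DMSO, by 1.46 ± 0.30 (3.12e-04). UBE2J2, a ubiquitin-conjugating enzyme of the ER membrane, fell by 0.53 ± 0.05 (4.16e-08), and FAF2, which recruits the extracting ATPase VCP, by 0.42 ± 0.04 (1.40e-08).

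Among 8 genes of glycoprotein quality control, 3 were higher and 2 lower with everolimus, 3 and 3 with SGI-1027, and 2 and 3 with the combination. With upper-quartile scaling the combination gave 4 higher and 3 lower, so which direction held more calls depended on the scaling. The glucosidase II genes PRKCSH and GANAB were higher with the combination (0.53 ± 0.04 and 0.19 ± 0.04, edgeR adjusted p = 9.78e-10 and 1.66e-04). The folding sensor UGGT1 and the cargo receptor LMAN1 were lower (−0.33 ± 0.04 and −0.31 ± 0.04, adjusted p = 1.23e-06 and 6.02e-06).

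Of 30 genes of ER translocation and export 5 were higher and 8 lower with everolimus, 4 and 15 with SGI-1027, and 3 and 16 with the combination, with medians of −0.07, −0.11 and −0.15. Under upper-quartile scaling the everolimus counts were 9 higher and 5 lower, so which direction held more calls in that group depended on the scaling, and without DMSO replicate 1 and SGI-1027 replicate 3 they were 6 and 14. SRPRB, a subunit of the signal recognition particle receptor, fell by 0.76 ± 0.07 with the combination (edgeR adjusted p = 1.24e-08) and SEC23A, of the COPII coat, by 0.49 ± 0.04 (6.58e-09). KDELR3, a receptor that returns ER residents such as BiP from the Golgi, rose by 0.47 ± 0.04 (1.99e-08), and the signal peptidase gene SEC11C by 0.29 ± 0.09 (0.00789).

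**Figure D5:**
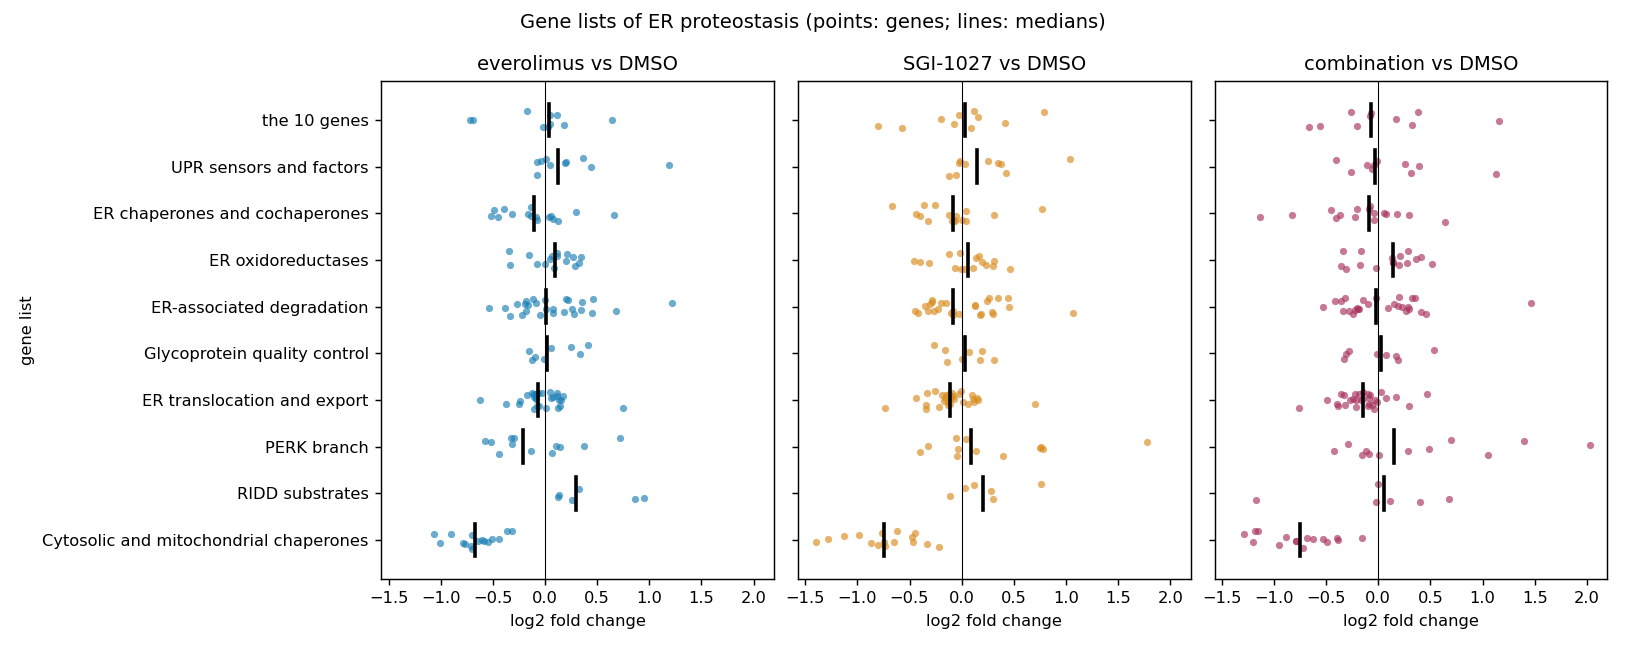
Log2 fold change (x axis, same scale in each panel) of every tested gene of the 10 genes and of 9 further lists (y axis) against DMSO, for everolimus, SGI-1027 and the combination, with 1 point per gene and a black line at the median of the list. The medians of the PERK branch lie at −0.21, 0.09 and 0.15. Those of the RIDD substrates (genes whose messenger RNAs IRE1 cuts) lie at 0.29, 0.20 and 0.06. The cytosolic and mitochondrial chaperones lie at −0.67, −0.74 and −0.75, and the medians of the other lists lie within 0.15 of 0.

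Of 12 genes of the PERK arm 2 were higher and 6 lower with everolimus, whereas 6 were higher and 2 lower with SGI-1027 and with the combination, and 9 were higher and 0 lower in the combination compared with everolimus (39.3% of tested genes were called in that comparison). ATF4, the factor of this arm, fell by 0.33 ± 0.04 with everolimus (edgeR adjusted p = 2.19e-06) and had −0.04 ± 0.04 and 0.01 ± 0.04 in the other groups (0.410 and 0.825). DDIT3, which encodes CHOP, a factor linked to cell death under lasting ER stress, had 8.99 ± 0.214 normalized CPM in DMSO, 9.69 ± 0.443 in everolimus libraries, 15.2 ± 1.23 in SGI-1027 libraries and 18.6 ± 0.453 in combination libraries. Its change with the combination was 1.05 ± 0.07 (7.54e-10) and with everolimus 0.11 ± 0.08 (0.248). NUPR1, a stress-induced nuclear protein, rose by 2.03 ± 0.09 with the combination (6.91e-13), and PPP1R15A, the phosphatase subunit GADD34 that reverses the PERK signal, by 1.40 ± 0.06 (4.44e-13). PPP1R15B, the constitutive counterpart of PPP1R15A, fell by 0.42 ± 0.05 (2.19e-07), and CEBPB, a partner of CHOP, by 0.29 ± 0.07 (7.35e-04).

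Of 6 genes whose messenger RNAs are known to be cut by IRE1 5 were higher and 0 lower with everolimus, 3 and 0 with SGI-1027, and 2 and 1 with the combination. HGSNAT rose by 0.68 ± 0.06 with the combination (edgeR adjusted p = 3.87e-08) and COL6A1 by 0.40 ± 0.06 (1.12e-05). PDGFRB fell by 1.17 ± 0.43 (0.0240) from 0.585 ± 0.0747 normalized CPM in DMSO.

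The chaperones of the cytosol and mitochondria, which answer to heat shock and mitochondrial signals and not to ATF6 or XBP1, were lower throughout. All 16 were called lower in each of the 3 treated groups in edgeR's test, with medians of −0.67, −0.74 and −0.75, and with upper-quartile scaling 16, 16 and 15 were. HSPA8, the constitutive cytosolic HSP70, fell by 0.70 ± 0.03, 0.65 ± 0.03 and 0.63 ± 0.03 (adjusted p from 1.24e-11 to 1.52e-11). HSP90AA1, the cytosolic HSP90, fell by 0.79 ± 0.04, 0.99 ± 0.04 and 1.19 ± 0.04 (adjusted p from 3.00e-14 to 2.71e-11). At the ends of the list with the combination, HSPA1A fell by 1.29 ± 0.24 (1.36e-04) and the mitochondrial chaperonin gene HSPD1 by 1.20 ± 0.06 (2.10e-12), while DNAJA1 fell by 0.38 ± 0.05 (1.27e-06) and the heat shock factor gene HSF1 by 0.16 ± 0.05 (0.0169). HSPA1A has a near-identical copy, HSPA1B, and reads of the pair may have been divided between them.

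Ratios within a library set 4 of the ER genes against their nearest relatives outside the list. On the log2 scale the ratio of HSPA5 to HSPA8 was −1.15 ± 0.03 in DMSO and differed from that by −0.01, 0.07 and −0.04 in the everolimus, SGI-1027 and combination groups (exact permutation test, two-sided, p = 0.5, 0.3 and 0.1), and the combination libraries did not overlap DMSO. The ratio of HSP90B1 to HSP90AA1 was −1.01 ± 0.03 in DMSO and higher by 0.97, 1.10 and 1.11 in the treated groups. The ratio of SDF2L1 to its paralog SDF2, whose own level did not pass the test in any group (edgeR adjusted p from 0.334 to 0.588), differed from DMSO by −0.76, −0.73 and −0.51. The ratio of CRELD2 to CRELD1 differed by −0.84, −0.97 and −0.84. For these last 3 pairs the treated libraries did not overlap DMSO in any group and the exact permutation p was 0.1 each time, the smallest that 3 against 3 libraries allow, or 0.12 adjusted over 12 tests, so none could reach 0.05.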

How the data were processed

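786-O cells were treated for 24 h, and 12 mRNA libraries were sequenced. The study's methods name TRIzol extraction and TruSeq Stranded libraries, while the records give an RNeasy kit and a SMARTER kit. The deposited tables hold counts, as whole numbers for each symbol with no normalization, and FPKM values scaled by gene length and library size, which were used for levels between genes and for limma. The submitters' processing notes name the builds GRCm38 and mm10, which are of mouse, although the symbols are human. The aligner, the counter and its strand setting are not given in the sources used here, so no gene coordinates from the files are printed.

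The tests ran in edgeR 4.0.16 under R 4.3.3. Genes passing filterByExpr (12841 of 17085) were scaled with TMM and fitted by quasi-likelihood with all 12 libraries in 1 model (prior count 0.125), and contrasts gave log2 fold changes with SE. The Benjamini-Hochberg adjustment took in every tested gene, with calls under 0.05. Alternatives were DESeq2 1.42.0, limma 3.58.1 on log2(FPKM + 1) and log2(FPKM + 0.1), other filters, scaling and fits, the study's cut-off, and leaving out each library. The procedure was tested on simulated data. Depth was 37046231 to 41516976 counts per library. The spread was estimated with all 12 libraries in the model. Genes with few counts, such as DNAJB9 with 150 to 238 in DMSO libraries, also carry counting error. Paralog ratios were compared by exact permutation tests.

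The 10 genes, the lists and the tests were chosen with earlier results of these data known. All 10 genes are named, as are all sensor genes, a set of 8 pathway genes (ERN1, EIF2AK3, ATF6, DDIT3, ATF4, SYVN1, HSPA8 and HSP90AA1), and from each list the 2 called genes that changed most upward and the 2 that changed most downward in the combination group, and the 5 genes most alike. Promoters came from RefSeq and exon overlaps from GENCODE release 29. Whether same-numbered replicates pair across groups was checked by correlating their deviations from group means. All 18 correlations lay between −0.18 and 0.04, so libraries were not paired. Between libraries of different numbers, DMSO replicate 1 and SGI-1027 replicate 3 had the highest correlation, 0.232, and its cause was not tested.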

Additional observations from a re-analysis of the deposited data

Results flagged for a closer look

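An interaction between the drugs was called for 45.6% of all tested genes in edgeR's quasi-likelihood fit and for 5 of the 10 genes, a share near that of all genes. The interaction was 0.62 on the log2 scale for HSPA5 (adjusted p = 1.64e-08) and 0.94 for SDF2L1 (7.38e-05), both genes whose combination mean was not under the lower of the single-drug means. It was −0.37 for HSP90B1 (1.70e-05), which rose with each drug alone, and −0.17 for PDIA4 (0.00852), which fell with the combination. For CRELD2 it was 0.17 (0.0455), a call that was lost in 14 of 21 alternatives. The dose of everolimus alone is recorded as 5 µM and as 10 µM, and its part in these terms was not tested. With 3 libraries per group no single library could be tested as an outlier.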

How the results depend on the processing

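With the study's cut-off, which adds a fold change of 1 or more on the log2 scale, the counts of the 10 genes called higher and lower were 0 in every comparison except 1 higher in the combination group against DMSO, since most changes were smaller than that. Under upper-quartile scaling, which moved the median of all genes by less than 0.1, 5 genes were higher with everolimus and 4 had a negative interaction, PDIA4 with everolimus became 0.056 and SEL1L with SGI-1027 0.025. Leaving out libraries in turn gave 0 to 2 genes higher in the combination against SGI-1027, namely 1 without combination replicate 1 or 3, 0 without combination replicate 2, and 2 without any other library. The 2 were not the same pair without SGI-1027 replicate 2, where DNAJB9 lost its call (edgeR adjusted p = 0.102) and SDF2L1 gained one (0.00905).

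Signs turned only for values that missed the threshold. Without DMSO replicate 1, everolimus gave −0.0139 for XBP1, −0.00434 for SEL1L and −0.0255 for EDEM1, and the XBP1 interaction was 0.0298. Without that library and SGI-1027 replicate 3, a fit added after seeing the data, these were −0.0120, −0.00261, −0.0235 and 0.0311. The XBP1 interaction was also 0.00465 with no filter, 0.00221 and 0.00219 with limma, 0.000394 without everolimus replicate 3 and 0.00291 without combination replicate 1. Combination against SGI-1027 gave −0.00337 for XBP1 without SGI-1027 replicate 2, and for CRELD2 −0.00159 in a fit of those groups, −0.00819 without SGI-1027 replicate 1 and −0.0172 without combination replicate 2. Over all libraries left out in turn the values ran from −0.0139 to 0.0522 for XBP1, −0.00434 to 0.0694 for SEL1L and −0.0255 to 0.0916 for EDEM1 with everolimus, from −0.00337 to 0.0282 for XBP1 and −0.0172 to 0.0177 for CRELD2 in the combination against SGI-1027, and from −0.0362 to 0.0298 for the XBP1 interaction. The cause was not tested. Of all values of the 10 genes under alternatives, 1200 kept direction and side of the threshold, 72 lost it, 19 gained it and 19 turned.

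Replicate numbers did not pair libraries (median correlation 0.00135, 0 of 18 over 0.1). With replicate block, 2 calls were lost, HERPUD1 with everolimus (0.11, adjusted p = 0.0579) and the interaction of CRELD2 (0.17, 0.0652), and no other call of the 10 genes changed. With 3 libraries per group, the changes of DNAJB9 and SDF2L1 had the largest standard errors of the 10 genes.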

Other observations

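Genes chosen after their values were seen extend the account of ER chaperones. HYOU1, MANF and DNAJB11, which are known targets of ATF6 or XBP1 that act with or beside BiP, fell in every treated group as HSPA5 and SDF2L1 did. They are 3 of the genes of this response, and others did not follow them: DNAJC10, DERL3 and KDELR3 rose in every treated group, PDIA6 had log2 fold changes of 0.05, 0.11 and 0.14 with the last 2 called, and DNAJC3 had −0.13, −0.06 and −0.09 with none called. HYOU1, the nucleotide exchange factor of BiP, went from 436 ± 11.5 normalized CPM (SD, n = 3) in DMSO libraries to 351 ± 9.23 in everolimus, 348 ± 12.1 in SGI-1027 and 329 ± 6.03 in combination libraries, and its log2 fold changes were −0.31, −0.33 and −0.41 (edgeR adjusted p from 2.36e-08 to 1.21e-06). MANF, a secreted protein that binds BiP, had 86.2 ± 2.28, 60.0 ± 2.20, 67.3 ± 0.786 and 66.8 ± 1.32 in the same order, and DNAJB11, a J-domain partner of BiP, 92.2 ± 0.662, 65.6 ± 0.912, 70.0 ± 1.44 and 67.2 ± 4.41. TRIB3, a target of ATF4 and CHOP, moved in opposite directions with the single drugs, −0.58 ± 0.05 with everolimus (adjusted p = 3.51e-08) and 0.40 ± 0.05 with SGI-1027 (2.16e-06), and its interaction was 0.88 ± 0.07 (3.18e-08).

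The genes outside the list whose levels most resembled single members over the 12 libraries, also chosen after values were seen, were GNL3 (r = 0.99) for HSPA5, LAMTOR3 (0.98) for DNAJB9 and TMEM140 (0.99) for HERPUD1. ERSE was also found in the promoter windows of 2 of 15 genes of the chaperone list, 2 of 14 oxidoreductase genes and 1 of 26 translocation and export genes with a window, and in none of 21 ERAD genes or 10 sensor genes (0 in each).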
